A study of Mus musculus with 9 samples.

Results

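The expression of 10 genes that mark macrophage identity was followed in RAW 264.7 cells, a mouse macrophage-like line, after loading with triglyceride-rich emulsion particles. They were *Spi1*, *Irf8*, *Cebpa* and *Runx1*, which encode transcription factors, and *Csf1r*, *Adgre1*, *Itgam*, *Cd14*, *Fcgr1* and *Mrc1*, which encode surface proteins. Each is the 1 row of the gene-level count table whose Ensembl identifier maps to that symbol. They are 10 of the 54432 genes in the table. A low-count filter asked for over 10 counts in no fewer than 3 of the 9 libraries. It left 12637 genes and all 10 of these, *Mrc1* with the fewest counts, 23 to 58 in a library.

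The 9 RNAseq libraries form 3 groups of 3. Control cells (CTRL) were left untreated, and the others received VLDL-sized (VLDLsep) or chylomicron-sized emulsion particles (CHYLsep, called CHYL-sized here). The methods give 1 mM and 6 hours for both, while a figure legend of the paper gives a lower dose for CHYL-sized particles. Equal doses are therefore not certain. The particles were sunflower oil emulsions held in suspension by sodium caseinate, and the control cells received neither oil nor caseinate, so that an effect of the lipid and an effect of the emulsifier cannot be told apart. All groups share the same cell line, which is an established, transformed line rather than cells from several animals, and the methods describe a pooling of the samples that a condition had within an experiment. The p-values therefore measure the spread between pools of a single line.

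Macrophages are made and maintained by a small set of transcription factors. PU.1, the product of *Spi1*, is the master factor of the myeloid lineage and binds much of the macrophage's regulatory DNA together with C/EBP factors, RUNX1 and IRF8. Among the genes under its control is *Csf1r*, the receptor for the growth factors M-CSF and IL-34, which macrophages need to survive. The surface proteins are the ones by which macrophages are recognized and sorted, and each has a task of its own: adhesion, the sensing of lipopolysaccharide (LPS), the binding of antibody or the uptake of glycoproteins.

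*Cebpa* rose 3.96-fold after VLDL-sized and 3.83-fold after CHYL-sized particles. *Irf8*, *Runx1*, *Cd14* and *Fcgr1* fell after both particles. Of these falls that of *Fcgr1* after VLDL-sized particles was the largest: it fell by 43.7%. *Irf8* and *Runx1* after CHYL-sized particles showed the smallest: both fell by 25.9%. After VLDL-sized particles *Spi1* fell by 16.1% and *Itgam* fell by 11.6%, calls that several alternative settings lost, and neither passed the test after CHYL-sized particles. *Csf1r*, *Adgre1* and *Mrc1* passed the test after neither particle. No gene of the 10 passed the test between the particles.

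The DNA just before the transcription start is shown for the 5 genes that passed the test and have an entry in the table of mouse promoters used here (RefSeq, build GRCm38.p6): *Cebpa*, which rose, and *Irf8*, *Runx1*, *Itgam* and *Fcgr1*, which fell. Each sequence is the 250 bases that end 1 base before the annotated start, read 5′ to 3′ along the strand of the gene. The capitals mark every GAGGAA, the core letters bound by PU.1, on either strand (TTCCTC where it lies on the other one).
*Cebpa*, chr7:35119043-35119292 (+ strand): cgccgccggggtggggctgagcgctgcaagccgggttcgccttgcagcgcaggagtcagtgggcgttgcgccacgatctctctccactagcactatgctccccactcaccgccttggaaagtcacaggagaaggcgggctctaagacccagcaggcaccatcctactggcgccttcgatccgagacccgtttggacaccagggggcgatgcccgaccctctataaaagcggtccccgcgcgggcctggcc
*Irf8*, chr8:120736108-120736357 (+ strand): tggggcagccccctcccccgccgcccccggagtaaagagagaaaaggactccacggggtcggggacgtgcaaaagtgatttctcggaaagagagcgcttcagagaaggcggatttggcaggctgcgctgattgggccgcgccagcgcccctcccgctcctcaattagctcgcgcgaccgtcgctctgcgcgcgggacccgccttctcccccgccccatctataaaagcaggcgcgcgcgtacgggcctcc
*Runx1*, first start, chr16:92826075-92826324 (− strand): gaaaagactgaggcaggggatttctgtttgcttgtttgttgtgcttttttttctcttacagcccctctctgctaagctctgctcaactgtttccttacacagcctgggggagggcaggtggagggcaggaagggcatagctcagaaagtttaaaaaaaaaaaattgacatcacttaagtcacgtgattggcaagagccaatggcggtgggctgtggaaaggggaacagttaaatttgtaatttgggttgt
*Runx1*, second start, chr16:92697330-92697579 (− strand): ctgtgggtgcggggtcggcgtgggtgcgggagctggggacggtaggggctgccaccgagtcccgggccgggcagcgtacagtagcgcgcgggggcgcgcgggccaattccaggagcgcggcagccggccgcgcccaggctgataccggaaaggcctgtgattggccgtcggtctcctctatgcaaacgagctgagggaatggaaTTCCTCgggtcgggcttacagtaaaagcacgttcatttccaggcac
*Itgam*, chr7:128062390-128062639 (+ strand): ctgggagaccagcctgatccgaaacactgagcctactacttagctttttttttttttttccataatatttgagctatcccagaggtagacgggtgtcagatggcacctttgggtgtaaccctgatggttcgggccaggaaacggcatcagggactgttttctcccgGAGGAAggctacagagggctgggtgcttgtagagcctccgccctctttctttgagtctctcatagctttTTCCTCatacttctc
*Fcgr1*, chr3:96293970-96294219 (− strand): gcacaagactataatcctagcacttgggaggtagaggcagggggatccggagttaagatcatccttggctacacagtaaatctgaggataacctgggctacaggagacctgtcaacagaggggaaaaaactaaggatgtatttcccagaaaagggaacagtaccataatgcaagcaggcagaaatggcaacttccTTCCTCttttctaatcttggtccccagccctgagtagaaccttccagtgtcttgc

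A table entry was found for 6 of the 10 genes, the ones printed and *Mrc1*; *Irf8* and *Runx1* have a pair of starts each, which makes 8 windows. *Spi1* and *Adgre1* had no entry, and *Csf1r* and *Cd14* are not shown. The letters GAGGAA stood in 4 of the 8 windows, those of *Fcgr1*, *Itgam*, *Mrc1* and the second start of *Runx1*, against 23.3% of all 32851 windows of the same length in the table. In *Fcgr1* they began 55 bases before the start, in *Runx1* 46 bases and in *Itgam* 84 and 15 bases. In *Mrc1*, which passed the test after neither particle, they began 180, 167 and 35 bases before the start. Neither *Cebpa*, the gene that rose, nor *Irf8* held them. Of the 4 other motifs searched on both strands, none occurred in any of the 8 windows: TTGCNNAA for C/EBP, found in 9.56% of all windows, TGTGGT for RUNX, found in 14% of them, a pair of GAAA with 2 bases between them for IRF, found in 2.98%, and TGANTCA for AP-1, found in 6.75%. Since no window held more than 1 kind of motif, no matches overlapped. A match or its absence describes these letters in this window and nothing more.

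The depth of the libraries was nearly equal, at 22393893 to 22856792 estimated counts. Values are given as counts-per-million (cpm) after TMM normalization, which corrects library sizes for a few genes that take many counts, and 10 counts correspond to 0.438 to 0.447 cpm. Several macrophage markers were abundant in every group, and others were not. *Cd68*, which encodes a lysosomal membrane glycoprotein, lay at 928 ± 18.9 cpm in control cells, 1040 ± 63.2 after VLDL-sized and 1020 ± 28.9 after CHYL-sized particles. *Lyz2* (lysozyme) lay at 2430 ± 79.6, 2210 ± 37.4 and 2290 ± 67.3 cpm. *Mpeg1* (perforin-2) lay at 1650 ± 48.4, 1940 ± 167 and 1880 ± 157 cpm. *Ptprc* lay at 473 ± 27.2, 382 ± 22.5 and 403 ± 14.8 cpm and passed the test after both particles (log2 fold change -0.31 and -0.23, limma-voom adjusted p = 0.0023 and 0.016). After VLDL-sized particles *Cd68* and *Mpeg1* passed as higher (0.17 and 0.23, adjusted p = 0.028 and 0.034) and *Lyz2* as lower (-0.14, 0.033). Several alternative settings lost these VLDL-sized calls. After CHYL-sized particles their adjusted p was 0.089, 0.086 and 0.19. In control cells *Mertk* lay only at 20.7 ± 2.81 and *Adgre1* at 21.1 ± 2.79 cpm. *Axl*, *Timd4* and *Lyve1* had at most 4 counts in any library. B cell markers, of which *Ebf1* was the most abundant, reached at most 4 counts and the 6 markers of mast and erythroid cells at most 1 count in any library. Among 7 T and NK cell markers only *Lck*, a tyrosine kinase, passed the filter, and it rose after VLDL-sized particles from 2.91 ± 0.0891 to 5.16 ± 0.280 cpm (log2 fold change 0.82, limma-voom adjusted p = 9.2e-04), while *Cd3g*, *Cd8a* and *Ncr1* had 0 counts in all libraries and *Cd3e*, *Cd3d* and *Klrb1c* at most 3. The summed level of that list was 2.82 to 3.04 cpm in control libraries, 4.96 to 5.61 cpm after VLDL-sized and 3.50 to 4.65 cpm after CHYL-sized particles. In the lists for neutrophils, dendritic cells and fibroblast or epithelial cells, 1 gene each passed the filter (*S100a8*, *Zbtb46* and *Pdgfra*), with limma-voom adjusted p of at least 0.18 and summed levels of at most 3.08 cpm in any library. The neutrophil marker *Ly6g*, under the filter and named after its values were seen, had 0 counts in all control libraries, 5 to 9 counts after VLDL-sized and 4 to 8 counts after CHYL-sized particles, and the summed level of that list was 1.47 to 2.10, 2.05 to 2.48 and 2.23 to 2.26 cpm. The part of other cells in the changes was not tested. In such bulk RNA, fewer cells that express a gene and less RNA per cell cannot be told apart.

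The replicate 3 libraries stood apart. The root mean square log2 difference between replicates 1 and 2 of a group was 0.308 to 0.327, and between either and replicate 3 it was 0.370 to 0.397. Replicate 3 was the lowest library in all 3 groups for 6 of the 10 genes (*Csf1r*, *Irf8*, *Adgre1*, *Itgam*, *Fcgr1* and *Mrc1*), a pattern shown by 19.2% of all genes tested, and the highest in all 3 groups for *Cd14*, a pattern shown by 18.8%. Its part in the results was not tested beyond the values without it, which are given where they matter.

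The 10 genes span a wide range of levels. Per kilobase of the longest coding transcript, *Cd14* was highest in control cells at 500 ± 16.8 cpm, above 99.1% of the 11288 coding genes, and *Csf1r* followed at 287 ± 11.5 cpm. *Spi1* (143 ± 9.70) and *Itgam* (127 ± 4.75) came next, and their libraries were close to each other, at 132 to 150 and 122 to 131 cpm per kilobase. The middle of the order was taken by *Irf8* at 42.2 ± 2.11, *Fcgr1* at 27.1 ± 3.62 and *Runx1* at 16.2 ± 0.396 cpm per kilobase. *Adgre1*, which encodes the classical mouse macrophage marker F4/80, was low at 6.50 ± 0.861 cpm per kilobase, above only 39.8% of coding genes. *Cebpa* was lower still at 2.91 ± 0.237, and *Mrc1* closed the order at 0.325 ± 0.121 cpm per kilobase. With the length of all exons combined instead, *Itgam* came before *Spi1* and *Fcgr1* before *Irf8*, so those neighbours have no firm order.

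After treatment this order held, with 1 exception. *Cebpa* moved from place 9 to place 8, past *Adgre1*, and reached 11.5 ± 0.789 cpm per kilobase after VLDL-sized and 11.2 ± 1.60 after CHYL-sized particles, the level at which *Runx1* had arrived (11.6 ± 0.215 and 12.0 ± 0.467). In terms of all coding genes *Cebpa* went from above 24% of them to above 54.8% and 54%. With all exons combined *Cebpa* also passed *Runx1* and, after VLDL-sized particles, *Irf8*. By that length *Runx1* also fell below *Adgre1*, at 5.67 against 6.95 cpm per kilobase after VLDL-sized and 5.84 against 6.59 after CHYL-sized particles.

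**Figure D1:**
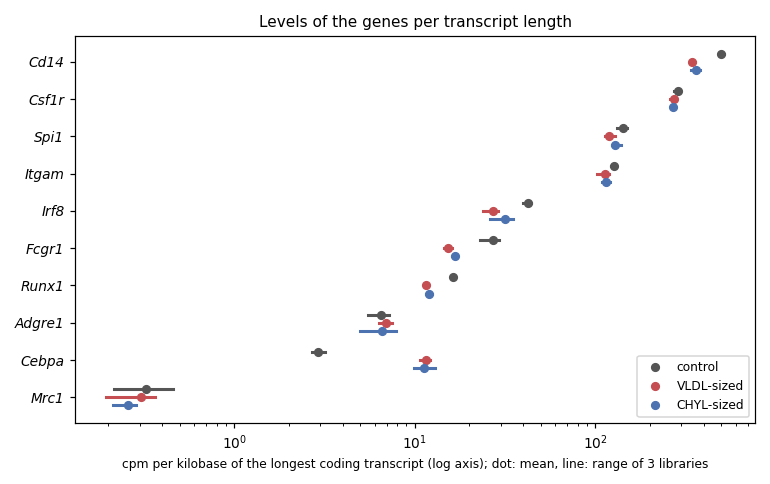
Level of each of the 10 genes in control cells (grey), after VLDL-sized (red) and after CHYL-sized particles (blue), in cpm per kilobase of the longest coding transcript on a log axis, with the mean as a dot and the range of 3 libraries as a line. The control level runs from 0.325 for *Mrc1* to 500 for *Cd14*, and *Cebpa* is the gene whose treated dots lie far to the right of the control dot.

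Expression of the transcription factors was examined first. *Cebpa* (ENSMUSG00000034957, chr7:35119293-35121928, + strand of GRCm38) encodes C/EBPα, which drives the early steps of the myeloid lineage and restrains the division of its cells. Its level was 8.33, 7.12 and 7.46 cpm in the 3 control libraries, 32.1, 28.0 and 30.8 cpm after VLDL-sized particles and 28.1, 26 and 34.1 cpm after CHYL-sized particles. All treated libraries lay far above all control libraries, and the particle groups overlapped each other. The log2 fold change was 1.99 with a standard error of 0.13 after VLDL-sized particles (limma-voom with Benjamini-Hochberg adjustment over all genes, adjusted p = 2.1e-06) and 1.94 with a standard error of 0.13 after CHYL-sized particles (adjusted p = 3.9e-06). Of all genes tested, 1.07% and 0.776% changed by more in either direction. These levels rest on 169 to 198 counts in a control library and 578 to 748 in a treated one. An antisense gene, *Gm45091*, overlaps an exon of *Cebpa* but stayed under the filter, and whether the counting used strand is not given in the sources used here.

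*Cebpa* was set against the other factors per length. The ratio of *Cebpa* to *Spi1* was 0.0189 to 0.0216 in control libraries, 0.0910 to 0.103 after VLDL-sized and 0.0711 to 0.105 after CHYL-sized particles. That of *Cebpa* to *Runx1* was 0.170 to 0.199 in control libraries, 0.914 to 1.03 after VLDL-sized and 0.825 to 1.13 after CHYL-sized particles, so that a low *Cebpa* level against *Runx1* became an about equal one by this length. By the length of all exons combined *Cebpa* stood higher, at 11.5 against 5.67 cpm per kilobase after VLDL-sized and 11.2 against 5.84 after CHYL-sized particles. *Cebpb*, a family member that serves inflammatory genes in macrophages and was named here after its value was seen, rose as well, from 88.4 ± 21.6 to 146 ± 14.4 cpm (log2 fold change 0.74, limma-voom adjusted p = 0.0034) and to 142 ± 19.2 cpm (0.70, adjusted p = 0.0067). The ratio of *Cebpa* to *Cebpb* was 0.0379 to 0.0589 in control libraries, 0.115 to 0.124 after VLDL-sized and 0.108 to 0.129 after CHYL-sized particles. *Cebpb* thus remained the more abundant of the pair in every library.

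*Spi1* (ENSMUSG00000002111, chr2:91082390-91115756, + strand) encodes PU.1. Its level was 299, 269 and 306 cpm in control libraries, 262, 239 and 232 cpm after VLDL-sized particles and 253, 284 and 253 cpm after CHYL-sized particles. All VLDL-sized libraries lay below all control libraries, although the highest of them and the lowest control were only a few cpm apart, and 1 CHYL-sized library lay inside the control range. The log2 fold change was -0.25 with a standard error of 0.070 after VLDL-sized particles (limma-voom adjusted p = 0.017) and -0.15 with a 95% interval of -0.30 to 0.01 after CHYL-sized particles (adjusted p = 0.16). The VLDL-sized call was lost on leaving out control replicate 1 (adjusted p = 0.062), VLDL-sized replicate 2 (0.057) or VLDL-sized replicate 3 (0.053). Of all genes tested, 42.3% changed by more after VLDL-sized particles.

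*Irf8* (ENSMUSG00000041515, chr8:120736358-120756694, + strand) encodes interferon regulatory factor 8, a partner of PU.1 that directs progenitors to the monocyte branch and serves antimicrobial genes in macrophages. It lay at 125, 121 and 114 cpm in control libraries, at 82.7, 82.9 and 67.8 cpm after VLDL-sized and at 99.7, 94.7 and 74.2 cpm after CHYL-sized particles. No treated library reached the control range, and replicate 3 was the lowest of each group. It fell by 35.4% after VLDL-sized particles (log2 fold change -0.63, standard error 0.11, limma-voom adjusted p = 0.0013) and fell by 25.9% after CHYL-sized particles (-0.43, standard error 0.11, adjusted p = 0.014). Without control replicate 1 the CHYL-sized call was lost (-0.40, adjusted p = 0.055).

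*Runx1* (ENSMUSG00000022952, chr16:92601466-92826149, − strand) encodes the DNA-binding part of core binding factor. Its replicates were the tightest of the 4 factors: 93.6, 93.5 and 97.6 cpm in control libraries, 69.3, 68.5 and 66.8 cpm after VLDL-sized and 73.0, 70.4 and 67.5 cpm after CHYL-sized particles. Both treated groups lay wholly below control and overlapped each other. On the log2 scale the change was -0.48 with a standard error of 0.048 (limma-voom adjusted p = 3.5e-05) and -0.43 with a standard error of 0.048 (adjusted p = 1.1e-04). *Cbfb*, which encodes the other subunit of core binding factor, fell beside it, from 317 ± 8.29 to 244 ± 15.5 cpm (log2 fold change -0.38, adjusted p = 3.8e-04) and to 268 ± 7.70 cpm (-0.24, adjusted p = 0.0084). The per-length ratio of *Runx1* to *Cbfb* was 0.144 to 0.150 in control, 0.130 to 0.151 after VLDL-sized and 0.122 to 0.134 after CHYL-sized libraries, so that control and VLDL-sized libraries overlapped and CHYL-sized libraries lay below control. The overlapping antisense gene *Gm26626* stayed under the filter.

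**Figure D2:**
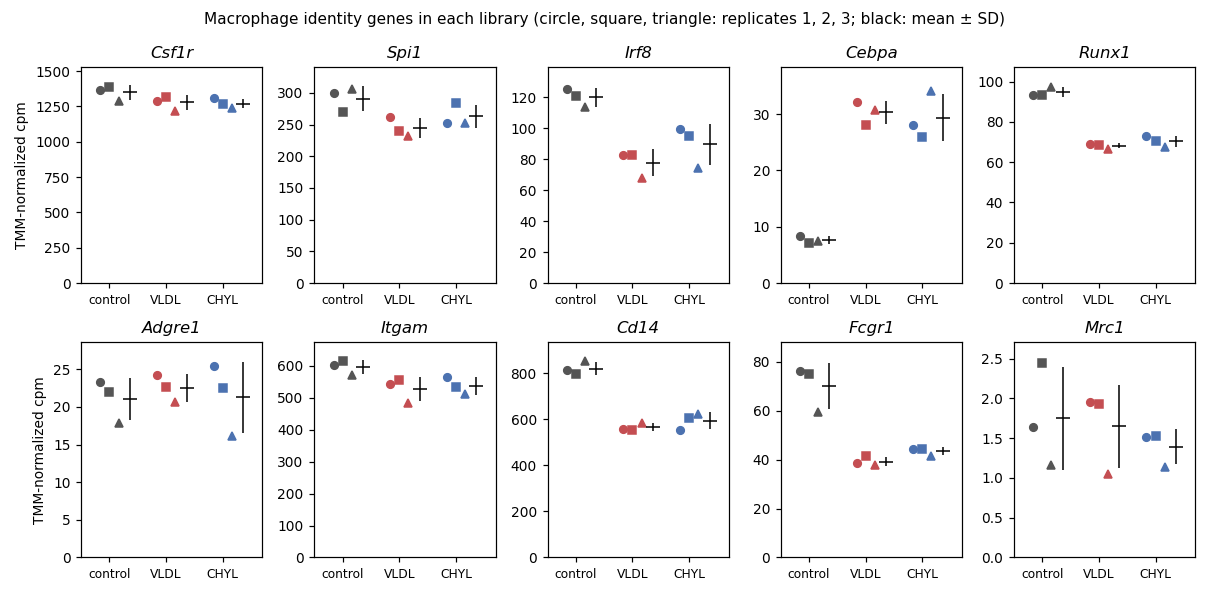
TMM-normalized cpm of the 10 genes in each library for control cells (grey), VLDL-sized (red) and CHYL-sized particles (blue), with replicates 1, 2 and 3 as circle, square and triangle and the mean ± SD in black; each axis starts at 0. The treated libraries lie wholly above control for *Cebpa* and wholly below it for *Irf8*, *Runx1*, *Itgam*, *Cd14* and *Fcgr1*, while the groups overlap for *Csf1r*, *Adgre1* and *Mrc1*.

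Among the surface proteins, the receptor for the lineage growth factor came first. *Csf1r* (ENSMUSG00000024621, chr18:61100598-61132149, + strand) is a tyrosine kinase receptor. It lay at 1370, 1390 and 1290 cpm in control libraries, at 1290, 1320 and 1220 cpm after VLDL-sized and at 1310, 1270 and 1240 cpm after CHYL-sized particles. The groups overlapped. Either particle gave a log2 fold change of -0.08, with a 95% interval of -0.19 to 0.03 in both cases (limma-voom adjusted p = 0.24 and 0.25). Scaled by library size alone, *Csf1r* passed the test after both particles, at -0.17 (adjusted p = 0.031) and -0.16 (adjusted p = 0.049); that setting moved the median of all genes by -0.094 and -0.079. An exon of *Csf1r* overlaps *Hmgxb3* on the opposite strand, which reached at most 40.3 cpm.

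The ligands of the receptor were low. *Csf1*, encoding M-CSF, lay at 3.15, 2.61 and 5.70 cpm in control libraries, 6.53, 4.99 and 6.37 cpm after VLDL-sized and 4.96, 3.96 and 6.20 cpm after CHYL-sized particles, and the groups overlapped (log2 fold change 0.71, limma-voom adjusted p = 0.055, and 0.46, adjusted p = 0.25). It passed after VLDL-sized particles with the replicate number as a block (0.65, adjusted p = 0.0066) or without CHYL-sized replicate 3 (0.71, 0.045), and after both particles without control replicate 3 (1.04 and 0.78, adjusted p = 0.0063 and 0.036) or all replicate 3 libraries (0.98 and 0.62, 0.0012 and 0.033). *Il34*, encoding the second ligand, had 0 counts in all 9 libraries. Of the 19 ligands, receptors and signalling proteins of the colony-stimulating factors, 16 were tested. With VLDL-sized particles 2 of the 16 rose and 4 fell, beside 35.6% of all genes called in either direction. With CHYL-sized particles 1 rose and 3 fell, beside 25.7% of all genes. The lowest adjusted p among the 16 belonged to *Ptpn6*, which encodes the phosphatase SHP-1. *Ptpn6* fell from 359 ± 5.14 to 209 ± 16.4 cpm (log2 fold change -0.79, limma-voom adjusted p = 1.8e-05) and to 246 ± 20.7 cpm (-0.55, adjusted p = 3.2e-04). *Lyn*, a SRC-family kinase, fell as well (-0.60 and -0.36, adjusted p = 6.6e-05 and 0.0029), whereas *Sos1*, an activator of RAS, rose (0.49 and 0.36, adjusted p = 5.0e-04 and 0.0050).

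*Adgre1* (ENSMUSG00000004730, chr17:57358691-57483527, + strand) encodes the adhesion receptor F4/80. Its level was 23.3, 22 and 17.9 cpm in control libraries, 24.3, 22.6 and 20.6 cpm after VLDL-sized and 25.4, 22.5 and 16.1 cpm after CHYL-sized particles. The 3 groups covered the same range, with replicate 3 the lowest in each. The fitted log2 fold change was 0.10 (95% interval -0.24 to 0.44, limma-voom adjusted p = 0.65) after VLDL-sized particles and 0.00 (-0.34 to 0.35, adjusted p = 0.99) after CHYL-sized particles, so that a change of up to 0.34 downwards or 0.44 upwards on the log2 scale lies inside these intervals.

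*Itgam* (ENSMUSG00000030786, chr7:128062640-128118491, + strand) encodes CD11b, the α chain of the complement receptor CR3. It lay at 603, 614 and 571 cpm in control libraries, at 542, 556 and 484 cpm after VLDL-sized and at 566, 534 and 511 cpm after CHYL-sized particles. Every treated library was below every control library, by a small distance. The log2 fold change was -0.18 with a standard error of 0.063 after VLDL-sized particles (limma-voom adjusted p = 0.049) and -0.15 with a standard error of 0.063 after CHYL-sized particles (adjusted p = 0.11). The VLDL-sized call was lost in 7 of 19 alternative settings, among them edgeR's test (adjusted p = 0.052) and the fits without control replicate 1 (0.125), control replicate 2 (0.144), VLDL-sized replicate 1 (0.067), VLDL-sized replicate 3 (0.152, log2 fold change -0.12) and CHYL-sized replicate 2 (0.069). Without all replicate 3 libraries *Itgam* passed after both particles (-0.15 each, adjusted p = 0.013 and 0.017). Another gene on the same strand, *Gm49368*, shares exon sequence with *Itgam* and reached at most 9.91 cpm.

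CD11b reaches the cell surface only when paired with CD18, the product of *Itgb2*, and this partner moved the other way. *Itgb2* lay at 211, 217 and 226 cpm in control libraries, at 267, 269 and 287 cpm after VLDL-sized and at 264, 254 and 258 cpm after CHYL-sized particles, without overlap with control (log2 fold change 0.33, limma-voom adjusted p = 4.0e-04, and 0.25, adjusted p = 0.0037). The per-length ratio of *Itgam* to *Itgb2* was 1.60 to 1.81 in control libraries, 1.07 to 1.31 after VLDL-sized and 1.25 to 1.36 after CHYL-sized particles. Of the 15 integrins and partners, 13 were tested. After VLDL-sized particles 4 were higher and 4 lower, beside 35.6% of all genes called. After CHYL-sized particles 2 were higher and 4 lower, beside 25.7% of all genes. *Itgb5* and *Itga6*, chains of other integrins, were among those that fell (-0.87 and -1.05 after VLDL-sized, -0.74 and -0.82 after CHYL-sized particles, limma-voom adjusted p at most 0.0043).

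*Cd14* (ENSMUSG00000051439, chr18:36725067-36726798, − strand) encodes the lipid-anchored protein that hands LPS to its signalling receptor. It lay at 815, 797 and 852 cpm in control libraries, at 558, 552 and 586 cpm after VLDL-sized and at 555, 606 and 625 cpm after CHYL-sized particles. The treated libraries lay far below control and overlapped each other, and replicate 3 was the highest of each group. It fell by 31.1% after VLDL-sized particles (log2 fold change -0.54, standard error 0.055, limma-voom adjusted p = 3.7e-05) and fell by 27.6% after CHYL-sized particles (-0.47, standard error 0.055, adjusted p = 1.6e-04). It nevertheless remained the highest of the 10 genes per length.

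The parts of the LPS receptor moved in both directions. *Tlr4*, the signalling receptor, fell from 97.3 ± 8.13 to 75.4 ± 8.79 cpm (log2 fold change -0.37, limma-voom adjusted p = 0.012) and to 75.9 ± 6.61 cpm (-0.36, adjusted p = 0.019). *Ly96*, which encodes the LPS-binding subunit MD-2, rose from 7.85 ± 1.2 to 11.3 ± 1.61 cpm (0.52, adjusted p = 0.014) and to 11.4 ± 0.427 cpm (0.54, adjusted p = 0.015). The per-length ratio of *Cd14* to *Tlr4* overlapped between the groups, at 19.3 to 24.1 in control libraries, 16.2 to 21.6 after VLDL-sized and 17.1 to 22.7 after CHYL-sized particles. Among the adaptors, *Myd88* fell slightly (-0.24 and -0.21, adjusted p = 0.0068 and 0.021) and *Ticam1*, the adaptor TRIF, rose from 20.5 ± 1.26 to 38.7 ± 2.71 cpm (0.91, adjusted p = 6.6e-06) and to 32.3 ± 0.0385 cpm (0.65, adjusted p = 1.2e-04). *Cd180*, a relative of *Tlr4*, fell after VLDL-sized particles (-0.22, adjusted p = 0.0032) and gave -0.13 after CHYL-sized particles (adjusted p = 0.064, or 0.0059 at -0.21 with library size only). After CHYL-sized particles the call of *Tlr4* was lost without control replicate 1 (adjusted p = 0.069), control replicate 2 (0.068) or CHYL-sized replicate 3 (0.064) and that of *Myd88* without control replicate 2 (0.064), CHYL-sized replicate 1 (0.078) or replicate 2 (0.059). *Ly96* lost its call without VLDL-sized replicate 2 (0.053) or all replicate 3 libraries (0.054) in the first and without CHYL-sized replicate 1 (0.052) in the second comparison. In the list of 11 genes, 10 were tested, with 2 higher and 3 lower after VLDL-sized and 2 higher and 2 lower after CHYL-sized particles. Over all genes 35.6% and 25.7% were called.

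*Fcgr1* (ENSMUSG00000015947, chr3:96282909-96293969, − strand) encodes CD64, the high-affinity receptor for IgG, and showed the largest fall of the 10 genes. It lay at 76.2, 74.8 and 59.3 cpm in control libraries, at 38.7, 41.4 and 37.6 cpm after VLDL-sized and at 44.4, 44.5 and 41.6 cpm after CHYL-sized particles. The treated groups were far tighter than the control group and did not overlap it, and the VLDL-sized libraries lay just below the CHYL-sized ones. The level fell by 43.7% after VLDL-sized particles (log2 fold change -0.83, standard error 0.094, limma-voom adjusted p = 8.0e-05) and by 37.6% after CHYL-sized particles (-0.68, standard error 0.093, adjusted p = 4.4e-04). Of all genes tested, 8.04% and 8.31% changed by more in either direction.

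For most other genes of the Fc receptor system the result depended on the fit. *Fcer1g*, encoding the γ chain through which CD64 signals, lay at 557 ± 32.2 cpm in control cells, 513 ± 45.1 after VLDL-sized and 544 ± 31.7 cpm after CHYL-sized particles (log2 fold change -0.12, limma-voom adjusted p = 0.23, and -0.03, adjusted p = 0.78). With the replicate number as a block it passed after VLDL-sized particles (-0.12, adjusted p = 0.029). The other receptors for IgG gave small negative values after VLDL-sized particles that passed with the block: *Fcgr2b* -0.23 (adjusted p = 0.35 without and 5.6e-04 with the block), *Fcgr3* -0.24 without and -0.23 with it (0.084 and 0.0012) and *Fcgr4* -0.28 and -0.27 (0.14 and 0.002). They were also called without all replicate 3 libraries, each at -0.20 (adjusted p = 0.0047, 0.0033 and 0.011). *Fcgr3* passed as well without control replicate 3 (-0.31, 0.032) and with library size only (-0.33, 0.033). *Fcgrt*, the neonatal receptor, gave -0.17 (0.47 without and 0.023 with the block). After CHYL-sized particles *Fcgr2b* alone among these receptors passed in an alternative. It did so with the block (-0.18, limma-voom adjusted p = 0.005) and without all replicate 3 libraries (-0.16, 0.022). The per-length ratio of *Fcgr1* to *Fcer1g* was 0.0298 to 0.0354 in control libraries, 0.0184 to 0.0213 after VLDL-sized and 0.0204 to 0.0215 after CHYL-sized particles. All 7 other Fc receptors and signalling genes were tested. In the main fit (all 9 libraries, TMM, no block) 1 of the 7 passed after each particle, beside 35.6% and 25.7% of all genes. This was *Syk*, the kinase downstream of the γ chain, which rose from 116 ± 4.09 to 149 ± 5.93 cpm (0.36, adjusted p = 3.6e-04) and to 143 ± 5.82 cpm (0.31, adjusted p = 0.0015).

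*Mrc1* (ENSMUSG00000026712, chr2:14229392-14332057, + strand) encodes the mannose receptor CD206, a marker of alternatively activated macrophages. It was near the detection limit at 1.64, 2.44 and 1.16 cpm in control libraries, 1.96, 1.93 and 1.05 cpm after VLDL-sized and 1.51, 1.53 and 1.14 cpm after CHYL-sized particles. The groups overlapped. The log2 fold change was -0.07 (95% interval -0.77 to 0.62, limma-voom adjusted p = 0.88) and -0.27 (-0.99 to 0.45, adjusted p = 0.59). Of other markers of alternative activation, *Cd163*, *Chil3* and *Retnla* had no count in any library and *Arg1* at most 1, whereas the lectins *Clec10a* and *Mgl2* were expressed. *Mgl2* rose from 12.3 ± 0.693 to 19.9 ± 2.85 and to 17.4 ± 0.941 cpm (0.69 and 0.51, adjusted p = 8.0e-04 and 0.0084).

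Among the other lectin receptors 8 of 11 tested genes passed the test after each particle, 6 of them higher and 2 lower, beside 35.6% and 25.7% of all genes. *Clec10a*, a galactose-type lectin, rose from 21.9 ± 2.23 to 40.8 ± 2.14 and to 41.1 ± 2.27 cpm (log2 fold change 0.90 and 0.91, limma-voom adjusted p = 1.9e-05 and 2.9e-05). *Clec4d*, a receptor for mycobacterial glycolipid, rose from 212 ± 35.1 to 397 ± 21.6 and to 387 ± 25.7 cpm (0.91 and 0.88, adjusted p = 6.3e-05 and 1.4e-04). *Clec5a*, which signals through DAP12, fell from 103 ± 2.09 to 45.8 ± 1.56 and to 55.9 ± 6.05 cpm (-1.17 and -0.89, adjusted p = 1.5e-06 and 1.2e-05).

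**Figure D3:**
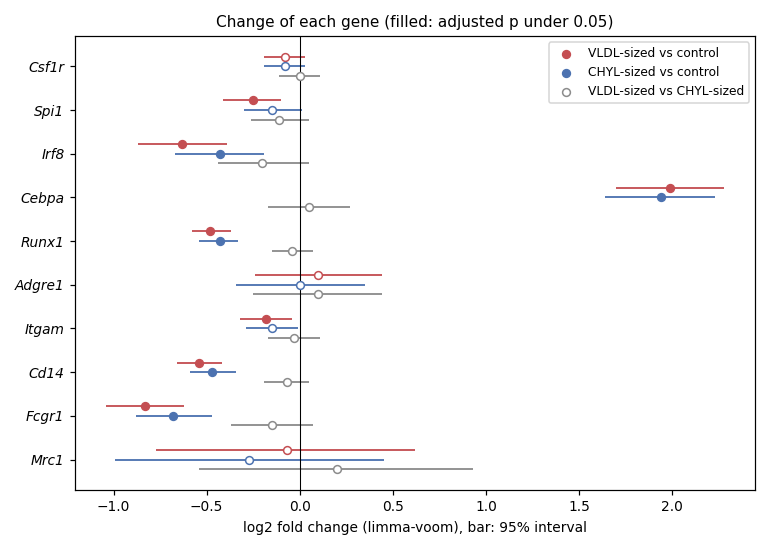
Log2 fold change of each of the 10 genes with its 95% interval for VLDL-sized against control (red), CHYL-sized against control (blue) and VLDL-sized against CHYL-sized particles (grey); filled points have a limma-voom adjusted p under 0.05. *Cebpa* stands alone on the right at 1.99 and 1.94, *Fcgr1* lies farthest left at -0.83 and -0.68, and the grey points are all open.

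Taking the 10 genes as a group, 7 passed the test after VLDL-sized particles, 1 higher and 6 lower, where 35.6% of all genes tested passed in either direction, 17.8% higher and 17.9% lower. After CHYL-sized particles 5 passed, 1 higher and 4 lower, where 25.7% of all genes passed, 12.7% higher and 13% lower. Before adjustment 7 and 6 of the 10 had a p under 0.05, where 44.7% and 37% of all genes did. The groups did not overlap for 7 genes after VLDL-sized particles (47.4% of all genes) and for 6 after CHYL-sized particles (41.7%). The median log2 fold change of the 10 genes was -0.22 and -0.21, and that of all genes tested was 0.00 in both. Both comparisons share the 3 control libraries.

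Between the particles the differences were small. VLDL-sized against CHYL-sized particles gave no limma-voom call among the 10 genes, none with an unadjusted p under 0.05 and none by DESeq2. For *Cebpa*, *Adgre1* and *Mrc1* DESeq2 gave no adjusted p, so that it did not decide on these genes. Over all genes 0 passed (0% called), 6.43% had an unadjusted p under 0.05 and DESeq2 called 24. *Irf8* was lower after VLDL-sized particles by a log2 value of -0.20 (95% interval -0.44 to 0.05, adjusted p = 0.82), *Fcgr1* by -0.15 (-0.37 to 0.07, adjusted p = 0.86) and *Spi1* by -0.11 (-0.26 to 0.05, adjusted p = 0.86). *Fcgr1* was the 1 gene of the 10 whose particle groups did not overlap, which 11.3% of all genes showed. For *Cebpa* the difference was 0.05 (-0.17 to 0.27), for *Csf1r* 0.00 (-0.11 to 0.11), for *Runx1* -0.04 (-0.15 to 0.07) and for *Cd14* -0.07 (-0.19 to 0.05). Without the replicate 3 libraries *Irf8* passed the test (-0.23, adjusted p = 0.032). A p above the threshold does not show that the particles acted alike, and these intervals give the sizes that remain possible.

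The libraries ordered the genes in recurring ways. Over the 9 libraries, as a description in which all points share the treatment groups and replicate 3, *Csf1r* and *Itgam* varied together (Pearson r of log2 cpm 0.96), as did *Runx1* and *Cd14* (0.95), and *Cebpa* ran against *Runx1* (-0.99). *Adgre1* showed little relation to *Spi1* (-0.08), *Runx1* (-0.06) or *Fcgr1* (0.03). Among 10595 genes with a mean of at least 50 counts, the pattern most like that of *Cebpa* was shown by *Nck2* (0.995), the one most like *Runx1* by *Arhgap22* (0.994), *Irf8* by *Cdc42ep3* (0.994), *Fcgr1* by *Ankrd54* (0.994) and *Cd14* by *Pimreg* (0.993). For *Csf1r* it was *Parp11* (0.987), for *Itgam* *Gpsm2* (0.982), for *Spi1* *Med24* (0.976), for *Adgre1* *B230354K17Rik* (0.975) and, among 10596 genes, for *Mrc1* *Intu* (0.956).

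The genes around the 10 were then described by 8 lists of macrophage genes, which leave out the 10. Of 129 genes, 105 were tested. After VLDL-sized particles 26 were higher and 29 lower, that is 52.4% called beside 35.6% of all genes, and after CHYL-sized particles 21 were higher and 22 lower, 41% beside 25.7%. The median log2 fold change of the 105 genes was -0.12 and -0.05. Between the particles 0 of 105 passed by limma-voom and 12 had an unadjusted p under 0.05. DESeq2 called none of them, but a gene for which it gave no adjusted p was counted as not called.

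In the list of transcription factors, 25 of 27 were tested. After VLDL-sized particles 6 were higher and 8 lower, beside 35.6% of all genes called. After CHYL-sized particles 6 were higher and 6 lower, beside 25.7% of all genes. *Mitf*, a factor of lysosomal and osteoclast genes, rose from 31.5 ± 0.394 to 47.6 ± 1.48 and to 48.8 ± 1.37 cpm (log2 fold change 0.59 and 0.63, limma-voom adjusted p = 1.6e-05 and 1.7e-05). *Fli1*, an ETS factor like PU.1, fell from 129 ± 4.91 to 91.6 ± 5.75 and to 104 ± 4.41 cpm (-0.49 and -0.31, adjusted p = 1.1e-04 and 0.0028). *Maf*, a factor of mature resident macrophages, fell from 135, 123 and 86.6 cpm in control libraries to 17.4, 21.6 and 8.88 cpm after VLDL-sized and 32.5, 33.2 and 13.3 cpm after CHYL-sized particles (-2.91 and -2.21, adjusted p = 1.7e-04 and 7.4e-04). Its fall was thus several times larger on the log2 scale than that of *Irf8*, *Runx1* or *Spi1*.

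Of 24 other macrophage and leukocyte surface genes, 16 were tested. After VLDL-sized particles 3 were higher and 7 lower, beside 35.6% of all genes called. After CHYL-sized particles 1 was higher and 5 lower, beside 25.7% of all genes. *C5ar1*, the receptor of complement C5a, fell from 272 ± 26.3 to 134 ± 4.19 and to 159 ± 4.56 cpm (log2 fold change -1.02 and -0.77, limma-voom adjusted p = 2.0e-06 and 2.0e-05). *Sirpa*, which receives the signal of CD47, fell from 1180 ± 16.0 to 738 ± 63.8 and to 833 ± 71.9 cpm (-0.68 and -0.51, adjusted p = 6.3e-05 and 7.1e-04). *Cx3cr1*, the fractalkine receptor, fell from 54.9, 53.3 and 103 cpm to 9.90, 10.7 and 18.2 cpm and to 16.1, 15.0 and 25.5 cpm (-2.42 and -1.87, adjusted p = 2.8e-04 and 0.0012), with replicate 3 the highest library in each group.

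Among 14 activation markers 7 were tested, with 2 higher and 1 lower after VLDL-sized and 2 higher and 0 lower after CHYL-sized particles. The share called over all genes was 35.6% and 25.7%. *Cd274*, encoding the checkpoint ligand PD-L1, rose from 3.70, 3.79 and 7.38 cpm in control libraries to 22.9, 22.8 and 22.2 cpm after VLDL-sized and 17.1, 15.4 and 17.4 cpm after CHYL-sized particles (log2 fold change 2.27 and 1.82, limma-voom adjusted p = 9.4e-06 and 8.4e-05). *Marco*, a scavenger receptor, rose from 2.64 ± 0.5 to 4.70 ± 0.803 and to 6.47 ± 0.673 cpm (0.83 and 1.30, adjusted p = 0.0064 and 5.2e-04). *Tgm2*, a transglutaminase, fell after VLDL-sized particles from 0.988 ± 0.133 to 0.488 ± 0.0583 cpm (-0.98, adjusted p = 0.034), a call lost without any 1 of the 6 control and VLDL-sized libraries (adjusted p = 0.052 to 0.096), and gave -0.24 after CHYL-sized particles (adjusted p = 0.59).

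RAW 264.7 cells can also form osteoclasts, and 5 of 10 osteoclast markers were tested. *Tnfrsf11a*, which encodes the receptor RANK, fell from 61.1 ± 3.44 to 28.5 ± 3.79 and to 35.3 ± 0.341 cpm (log2 fold change -1.11 and -0.79, limma-voom adjusted p = 5.6e-06 and 6.7e-05). The summed level of the list was 122 to 127 cpm in control libraries, 82.8 to 95.5 cpm after VLDL-sized and 93.1 to 97.6 cpm after CHYL-sized particles. In each treated group 1 of the 5 tested markers was higher and 2 were lower, beside 35.6% and 25.7% of all genes called.

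**Figure D4:**
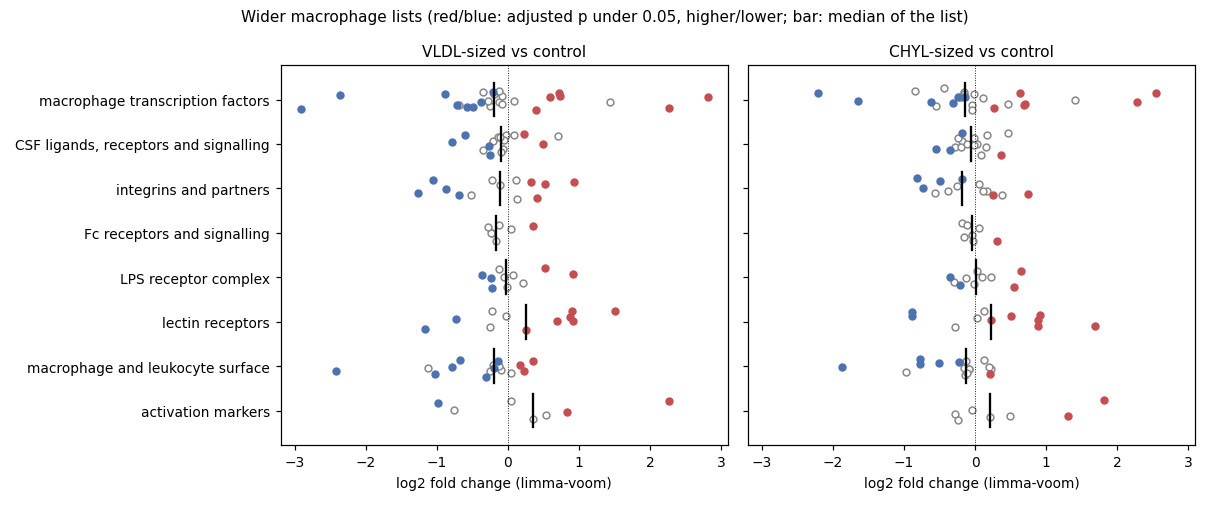
Log2 fold change of each tested gene in the 8 wider macrophage lists, for VLDL-sized (left) and CHYL-sized particles (right) against control; red and blue points are genes called higher and lower by limma-voom, open points did not pass, and the black bar is the median of the list. The lectin receptors hold 6 red and 2 blue points in either panel, and the lowest blue points among the transcription factors are *Maf* at -2.91 and -2.21.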

How the data were processed

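RNAseq was performed on 9 libraries of RAW 264.7 cells in 3 groups of 3, grouped by the sample labels. The authors mapped the reads with Salmon 0.14.1 to mouse GRCm38.p6 transcripts and deposited an estimated count per gene, summarized with tximport. The methods describe scaled counts (for transcript length and library size), which the deposited values did not resemble: 58.3% of those above 10 were whole numbers. All 9 columns were used. Symbols were matched for 54346 of 54432 identifiers. Genes that share sequence with paralogs, such as the *Clec4* lectins, are uncertain, since their reads may have been divided.

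Genes above 10 counts in no fewer than 3 libraries (99.9% of all counts) were fitted with limma 3.58.1 (limma-voom) on TMM-normalized counts (edgeR 4.0.16, R 4.3.3), in 1 model of all 9 libraries, two-sided, with Benjamini-Hochberg adjustment over the 12637 genes. A gene passed, or was called, at an adjusted p under 0.05. The methods use the same steps on scaled counts. Levels between genes were compared per kilobase of transcript, from a GENCODE release of GRCm38 earlier than that of the authors. The fitting steps were also run on simulated counts. These held few changed genes, in the VLDL-sized group alone, and no replicate effect, unlike the data here. That run therefore checked the code and not the calls reported.

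The 10 genes and all lists were chosen with earlier results of these data known. The genes named are the 10, their partners (*Itgb2*, *Fcer1g*, *Cbfb*, *Tlr4*, *Ly96*, *Csf1*, *Il34*), the 3 called genes with the lowest adjusted p after VLDL-sized particles in each of 8 lists, for each list of osteoclast or other cell markers the called gene with the lowest adjusted p and the most abundant gene, and for each of the 10 genes the gene most like it. *Cebpb*, *Mgl2*, the other receptors for IgG, the macrophage markers and the markers at or near 0 counts fall outside this rule and were named after their values were seen.

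Alternatives were edgeR's quasi-likelihood test and DESeq2 1.42.0 on rounded counts, limma-trend (prior count 2), upper-quartile normalization, library size only, a filter at more than 50 counts or none, only the 2 groups compared, a replicate block, each library left out in turn and all replicate 3 libraries left out. Replicate numbers are shared between groups. Deviations from the group means of same-numbered VLDL-sized and control libraries correlated across genes at 0.14, 0.13 and 0.29. Control replicate 1 also correlated with VLDL-sized replicate 2 (0.12), and neither labels nor methods state what a number marks. Whether the numbers pair libraries is therefore not settled. The main fit had no block, as in the methods, so its p-values use no pairing, and the block is given as an alternative.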

Additional observations from a re-analysis of the deposited data

How the results depend on the processing

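The calls of *Cebpa*, *Runx1*, *Cd14* and *Fcgr1* against control kept their direction and passed in 19 of 19 alternatives for both particles, as did that of *Irf8* for VLDL-sized particles. With library size only, 8 of the 10 genes passed after CHYL-sized particles (main value 5), beside 28.3% of all genes. Among the 8 were *Csf1r* (-0.16), *Spi1* (-0.23, adjusted p = 0.034) and *Itgam* (-0.23, adjusted p = 0.033). That setting moved the median of all genes by -0.094 and -0.079, and 31.3% and 29.8% of its calls were higher, against 49.9% and 49.6%. With 1 library left out, 5 to 7 of the 10 genes passed after VLDL-sized, 4 to 5 after CHYL-sized and 0 between the particles, and 46 to 60, 34 to 48 and 0 of the wider lists. Over all genes these fits called 27.8% to 36.6% after VLDL-sized and 18.5% to 27.8% after CHYL-sized particles, and at most 0.00795% between the particles. Without all replicate 3 libraries 1 of the 10 genes and 11 of the wider lists passed between the particles, beside 2.07% of all genes. *Mrc1*, with 23 to 58 counts in a library, was removed by a filter at more than 50 counts.

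With a replicate block the number of the 10 genes that passed was 7 after VLDL-sized particles, 6 after CHYL-sized particles, *Itgam* being added (-0.15, adjusted p = 0.007), and 0 between the particles; of the wider lists 76, 65 and 7 passed, against 55, 43 and 0 without the block. Over all genes the share called also went up, from 35.6%, 25.7% and 0% to 47.9%, 39.2% and 1.16%. The block changed no other call of the 10 genes. For CHYL-sized against control the same-numbered libraries correlated at 0.12, 0.068 and 0.34 and between the particles at 0.029, 0.12 and 0.36. Replicate 1 and 2 libraries often correlated better with each other's number. Whether the numbers pair libraries is not settled in these comparisons either.

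Signs turned only for differences that had not passed. With 1 library left out, *Mrc1* ran from -0.33 to 0.22 after VLDL-sized particles (0.20 without control replicate 2 and 0.22 without VLDL-sized replicate 3) and from -0.53 to 0.00 after CHYL-sized particles (0.00 without control replicate 2). *Adgre1* ran from -0.01 (without control replicate 3) to 0.18 after VLDL-sized and from -0.14 to 0.19 after CHYL-sized particles. In the second case it was -0.08 with library size only, 0.00 with only the 2 groups compared, -0.11 without control replicate 3, -0.14 without CHYL-sized replicate 1 and -0.05 without CHYL-sized replicate 2. Between the particles the ranges with 1 library left out were -0.02 to 0.04 for *Csf1r*, -0.07 to 0.03 for *Itgam*, -0.03 to 0.16 for *Cebpa* and -0.09 to 0.24 for *Adgre1*. *Csf1r* was -0.01 with library size only, 0.00 with upper-quartile normalization, 0.00 and -0.02 without VLDL-sized replicate 1 and 2 and -0.01 without CHYL-sized replicate 3. *Itgam* was 0.03 without VLDL-sized replicate 3 and 0.01 without CHYL-sized replicate 1, *Cebpa* -0.03 without CHYL-sized replicate 2, and *Adgre1* -0.09 without CHYL-sized replicate 3 and -0.03 without all replicate 3 libraries. The cause was not tested.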
